A study of Mus musculus with 6 samples.

Results

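The constant genes of the immunoglobulin loci were followed in splenic B cells cultured from NZB/W F1 mice, a cross whose lupus-like disease includes autoantibodies. They were chosen by name: the heavy chain genes Ighm, Ighd, Ighg3, Ighg1, Ighg2b, Ighg2c, Ighe and Igha and the kappa light chain gene Igkc. All 9 had a row among the 41669 gene symbols of the deposited table. The libraries came from 3 female and 3 male mice, each a separate animal, and the 2 groups shared strain, lupus-like disease, its late stage, cell isolation and culture. Positive selection on a column gave the B cells, which were kept for 24 h with CpG, DNA that activates B cells through Toll-like receptor 9. The sources used here give no ages, and the culture had no unstimulated control among these samples. The comparison was between the sexes, female over male.

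An antibody is built from heavy and light chains, and the constant part of the heavy chain sets the isotype. Resting mature B cells make IgM and IgD from a single long primary transcript that is cut and spliced into either form. Class switch recombination deletes the DNA between Ighm and a downstream constant gene and so puts a gamma, epsilon or alpha gene next to the variable region. IgG autoantibodies, among them those to DNA, are a feature of lupus in this strain. In bulk RNA, fewer cells of an isotype and less RNA per cell cannot be told apart, and a row of the table pools the membrane and secreted forms of its gene and any RNA made from an unswitched constant gene.

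In GRCm38 the 8 heavy constant genes lie on chromosome 12 between 113254830 (Igha) and 113422730 (Ighm), on the minus strand. They follow each other in the order in which switching can reach them: Ighm, Ighd, Ighg3, Ighg1, Ighg2b, Ighg2c, Ighe and Igha. Igkc lies on chromosome 6 at 70726435 to 70726966, on the plus strand. Every heavy constant gene has 2 annotated transcripts in GENCODE M21 and Igkc has 1 of 532 bases. No exon of another annotated gene overlapped their exons.

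The 4 gamma genes are close relatives, so how far reads can tell them apart bears on each gamma value below. Of all 31-base words in their transcripts, Ighg2c shared 15.0% with another member, Ighg2b 9.29%, Ighg3 3.63% and Ighg1 1.72%. The other 5 members shared none. The 4 gamma genes are shown over the first 60 bases of their first exon, which encodes CH1, the first constant domain. Capitals mark the 22 positions at which the 4 genes are not all alike. The sequences are from the GENCODE M21 transcripts on GRCm38, minus strand, at chr12:113361173-113361232, chr12:113330464-113330523, chr12:113307874-113307933 and chr12:113288873-113288932 in the order printed.
Ighg3: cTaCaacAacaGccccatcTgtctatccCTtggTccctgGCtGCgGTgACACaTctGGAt
Ighg1: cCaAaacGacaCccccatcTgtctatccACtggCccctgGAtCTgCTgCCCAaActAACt
Ighg2b: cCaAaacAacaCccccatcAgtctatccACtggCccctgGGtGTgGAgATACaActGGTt
Ighg2c: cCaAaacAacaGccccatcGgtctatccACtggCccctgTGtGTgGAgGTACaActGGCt
Over the whole first exon of 291 bases, Ighg1 and Ighg2b were 88.3% identical, and Ighg2b and Ighg2c were 87.6% identical. Ighg3 stood further off, at 78.4 to 79.0% identity to the other gamma genes.

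The hinge exon, which joins CH1 to the rest of the chain, differs between the subclasses in length and in cysteines. It is shown whole, with in-frame cysteine codons in capitals, from chr12:113360529-113360576 (Ighg3), chr12:113329844-113329882 (Ighg1), chr12:113307261-113307326 (Ighg2b) and chr12:113288263-113288325 (Ighg2c), minus strand.
Ighg3: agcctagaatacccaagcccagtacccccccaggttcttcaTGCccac
Ighg1: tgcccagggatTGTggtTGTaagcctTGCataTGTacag
Ighg2b: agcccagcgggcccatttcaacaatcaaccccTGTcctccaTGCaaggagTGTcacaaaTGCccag
Ighg2c: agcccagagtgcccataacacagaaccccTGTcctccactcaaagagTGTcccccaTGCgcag
The hinge exon held 1 cysteine codon in Ighg3, 4 in Ighg1, 4 in Ighg2b and 3 in Ighg2c. GRCm38 is the genome of C57BL/6J, whose locus carries Ighg2c, while other strains carry the related Ighg2a. The table has no Ighg2a row, and the labels do not say which allele NZB/W F1 mice carry. How reads from an Ighg2a allele would have been counted was not tested, so the Ighg2c values are of the row of that name.

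Female replicate 3 stood apart before any comparison. The first principal component, with 50.8% of the variance, gave it a score of 94.2, against -47.9 to 6.66 in the other 5 libraries, and its TMM factor was 0.817, against 0.993 to 1.07. Library totals ran from 24089561 to 35659883 estimated counts in females and from 27402953 to 33205284 in males. The B cell markers summed to 2060 to 2270 CPM in females and 2060 to 2310 CPM in males. Markers of other cells were low: the T cell list summed to 3.23 to 4.67 CPM in females and 0.959 to 3.05 CPM in males, with Cd3e at 0 in 5 of 6 libraries. The macrophage list summed to 3.13 to 5.72 CPM in females and 0.629 to 0.869 CPM in males, with C1qa at 0 in all males and 5 of its 6 genes in the table. The NK list summed to 2.10 to 7.45 CPM in females and 1.61 to 3.85 CPM in males, with Ncr1 at 0 throughout. The erythroid list summed to 0.357 to 2.03 CPM in females and 0 to 0.0574 CPM in males, with Hba-a2 at 0 throughout, and the neutrophil list to 0.0283 to 0.454 CPM in females and 0 to 0.12 CPM in males, with Camp at 0 throughout. The T cell, macrophage and erythroid sums were thus higher in every female than in every male, though low. In the T cell list Cd3d was higher in every female, while Cd8a was highest in male replicate 2 (2.04 CPM). For single genes, 2.69% of all tested genes were higher in every female. How common such a gap is among sums of genes was not tested. The part of cells other than B cells in the results was not tested.

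Ighm led the heavy constant genes in every library, in counts as well as per kilobase of transcript. In CPM, counts scaled to a common library size by the column total, it had 1268, 1027 and 419 in female replicates 1 to 3, against 1136, 1058 and 1040 in male replicates 1 to 3. Females 1 and 2 lay near the males, and female 3 lay below all of them. The log2 fold change was -0.17 ± 0.29 (SE; adjusted p = 0.999, edgeR), and without female replicate 3 it was 0.10 ± 0.12.

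Ighd was lower in every female than in every male. It had 41.0, 35.9 and 21.7 CPM in female replicates 1 to 3, against 49.2, 57.9 and 50.9 CPM in male replicates 1 to 3. The means were 32.9 ± 10.01 CPM in females and 52.6 ± 4.63 CPM in males (SD, n = 3 each). The log2 fold change was -0.57 ± 0.19 (unadjusted p = 0.0165, adjusted p = 0.999, edgeR), so it did not pass the threshold over all genes tested. Of all tested genes, 7.55% were likewise lower in every female, so a gap of this kind is common in the table. Without female replicate 3 the log2 fold change was -0.44 ± 0.15 (unadjusted p = 0.0200, adjusted p = 1, edgeR). Ighd kept a negative value in all 15 alternative fits, between -0.68 and -0.44, with an unadjusted p under 0.05 in 14 of them and an adjusted p of 0.405 or more in all.

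**Figure D1:**
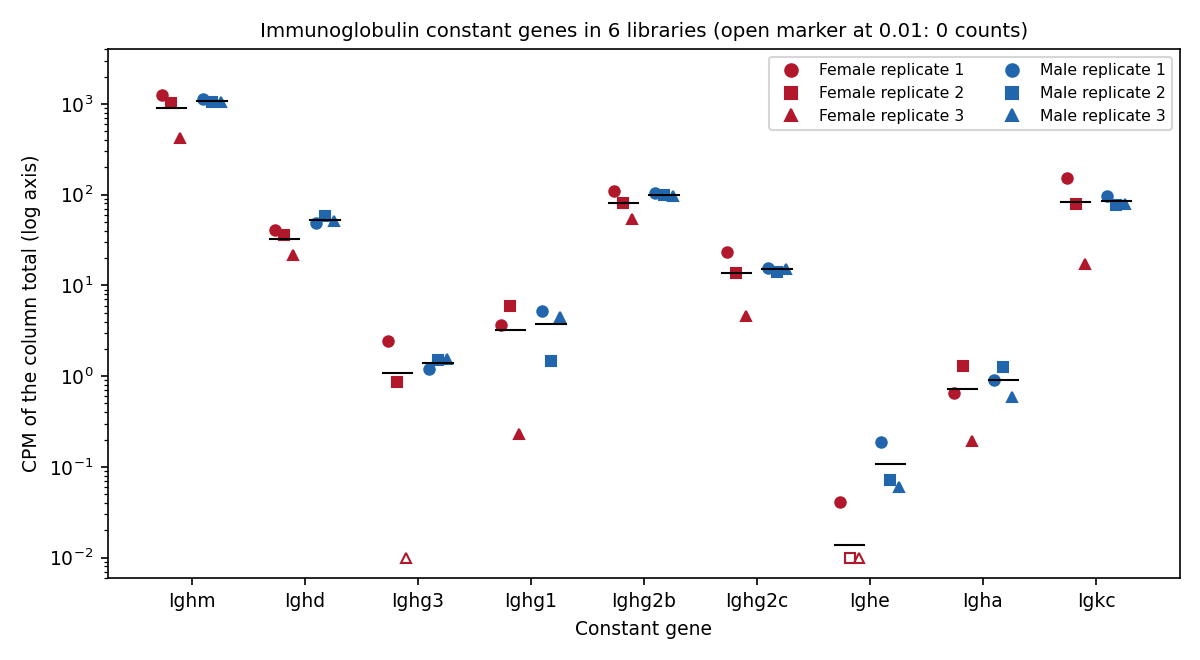
Level of each constant gene in CPM of the column total (log axis) in 3 female and 3 male libraries; black lines are group means and open markers at 0.01 stand for 0 counts. Ighd is lower in every female (21.7 to 41.0 CPM) than in every male (49.2 to 57.9 CPM), and female replicate 3 (red triangles) is the lowest female for Ighm, Ighd, Igkc, Igha and all 4 gamma genes.

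Ighg2b, the gene of a complement-fixing IgG subclass, was the leading gamma gene. It had 110, 81.7 and 53.8 CPM in female replicates 1 to 3, against 103, 98.8 and 95.9 CPM in male replicates 1 to 3. The groups overlapped, since female 1 was above all males and the other females below them. The log2 fold change was -0.18 ± 0.18, and -0.04 ± 0.14 without female replicate 3.

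Ighg2c, of the subclass that T-bet and interferon gamma promote in mice, came next. It had 23.3, 13.7 and 4.55 CPM in female replicates 1 to 3, against 15.6, 14.2 and 15.2 CPM in male replicates 1 to 3. Males lay within 1.42 CPM of each other while females lay on either side of them. The log2 fold change was -0.06 ± 0.44, and 0.30 ± 0.23 without female replicate 3.

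Ighg1 and Ighg3 were near the lower end of the counts. Ighg1, of the subclass that IL-4 promotes, had 3.65, 5.86 and 0.228 CPM in female replicates 1 to 3, against 5.19, 1.46 and 4.52 CPM in male replicates 1 to 3. Ighg3, of a subclass common in T cell-independent responses, had 2.42, 0.868 and 0 CPM in female replicates 1 to 3, against 1.19, 1.5 and 1.54 CPM in male replicates 1 to 3. In both genes the sexes overlapped and female 3 was the lowest library. Their log2 fold changes were -0.15 ± 0.90 and -0.36 ± 1.08, and 0.39 ± 0.53 and 0.21 ± 0.47 without that library. The size of the Ighg3 value rests on female 3, whose floor of 3 counts stood at 0.0841 CPM.

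Igha, the constant gene of mucosal IgA, and Ighe, that of IgE, were lowest. Igha had 0.649, 1.30 and 0.195 CPM in female replicates 1 to 3, against 0.905, 1.25 and 0.590 CPM in male replicates 1 to 3. The sexes overlapped, with a log2 fold change of -0.28 ± 0.64 (0.14 ± 0.54 without female replicate 3). Ighe did not pass the low-count filter. It had 1, 0 and 0 rounded counts in female replicates 1 to 3, against 6, 2 and 2 in male replicates 1 to 3, and male 1 was the only library above the floor of 3 counts, so no fold is given.

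Igkc, the constant gene of the kappa light chain that most mouse antibodies carry, spread widely in females. It had 154, 79.1 and 17.0 CPM in female replicates 1 to 3, against 96.8, 77.7 and 78.5 CPM in male replicates 1 to 3. The highest and the lowest library were both female, and the means were close, at 83.4 ± 68.6 CPM in females and 84.3 ± 10.8 CPM in males (SD, n = 3 each). The log2 fold change of 0.02 ± 0.56 turned to 0.46 ± 0.24 without female replicate 3 and to -0.68 without female replicate 1.

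In all, 0 of the 8 tested members passed an FDR of 0.05 with edgeR, beside 7 of 12172 genes, or 0.0575%, over the whole table. At an unadjusted p under 0.05 there was 1 member, Ighd, beside 2.89% of all tested genes. DESeq2 called 0 of the same 8, beside 0.237% of the genes it gave an adjusted p. With limma-voom, 0 of 8 were called, beside 0.0739%. Of the 8, 7 had a negative log2 fold change, beside 49.9% of all tested genes, and their median was -0.18, beside 0.00095 over all tested genes. Without female replicate 3, 2 of the 8 were negative and the median was 0.18, beside 47.6% negative and a median of 0.01 over all genes tested in that fit. In the same fit 0 members passed the FDR, beside 0.0961% of genes, and 1, again Ighd, had an unadjusted p under 0.05, beside 4.13% of genes. The negative direction of Ighm, Ighg3, Ighg1, Ighg2c and Igha with all 6 libraries was thus not kept without female replicate 3, and that of Ighg1 was also not kept without male replicate 1 (0.16) or male replicate 3 (0.011).

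**Figure D2:**
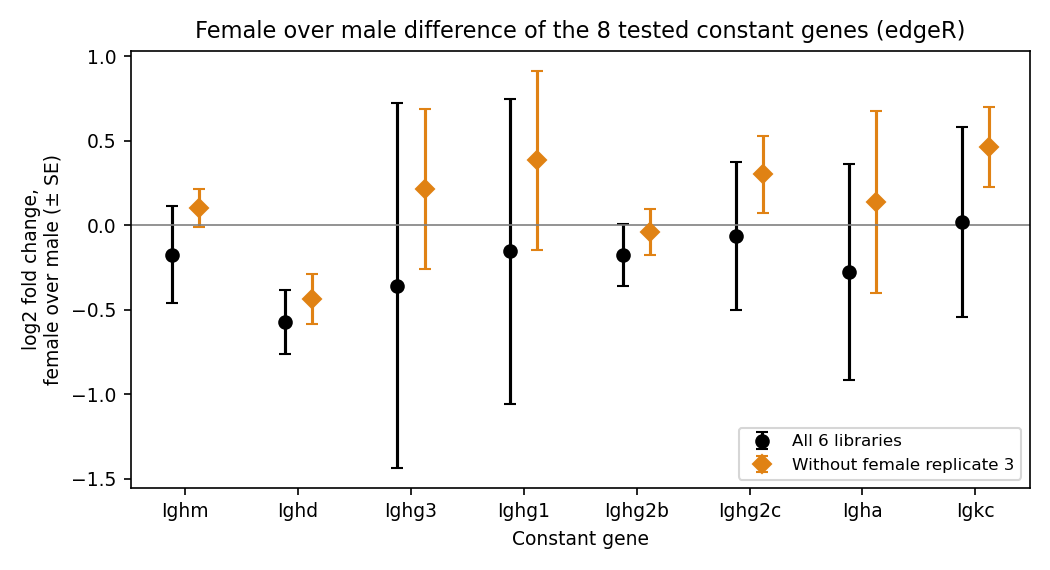
Log2 fold change, female over male, with its standard error for the 8 tested constant genes, from edgeR with all 6 libraries (black circles) and without female replicate 3 (orange diamonds). Ighd stays below 0 in both fits (-0.57 and -0.44), and Ighg2b lies at -0.18 and -0.04, while the other negative values turn positive without that library.

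Set against its companions, female 3 was low in most members but not by the same amount. Its level was compared with the mean of the other 5 libraries on the log2 scale, with a prior count of 2. The level minus that mean was -0.51 for Ighg2b, -0.74 for Ighd and -1.04 for Ighm. It was -1.46 for Ighg2c, -1.61 for Igha, -2.10 for Igkc, -3.43 for Ighg1 and -4.43 for Ighg3. Over all tested genes, the same difference had a median of -0.03 and ran from -2.08 at the 5th percentile to 0.97 at the 95th. Igkc, Ighg1 and Ighg3 therefore lay below the range of most genes, and the other 5 within it. In female 3, Ighg3 had 0 counts and Ighg1 8.12, so the size of their differences depends on the prior count. The members' longest transcripts ran from 532 bases (Igkc) to 2566 bases (Ighg2b), beside a median of 3311 bases over tested genes, and their GC content from 46.5% (Ighd) to 53.8% (Ighg2c), beside 48.1%. With a per-library trend in length and GC content removed, the 8 members had a median log2 fold change of -0.07, beside 0.03 over all genes tested. In that fit 6 members were negative, beside 46.4% of all genes, and 0 were called, beside 0.0904%.

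**Figure D3:**
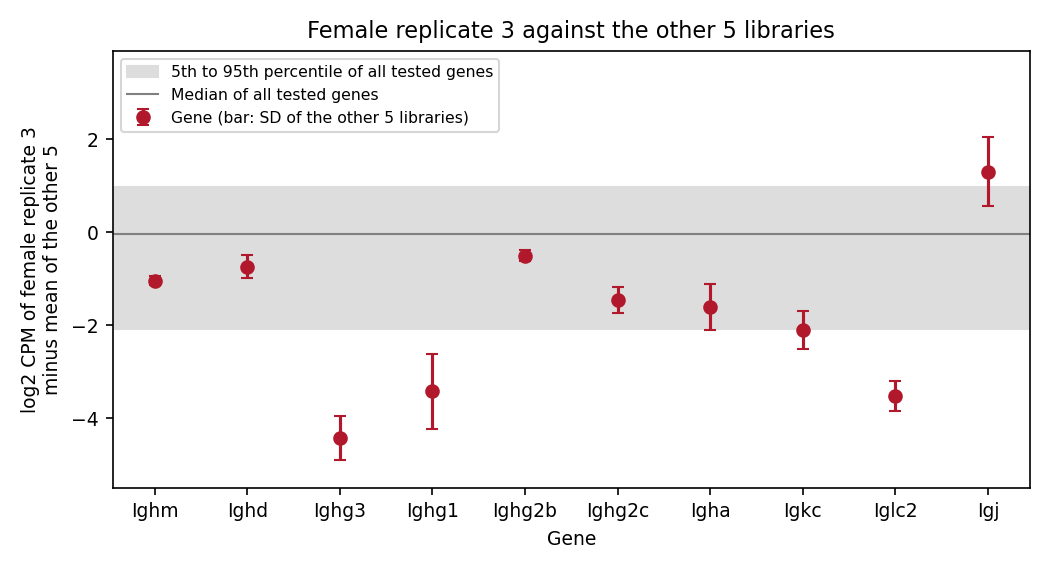
Log2 CPM of female replicate 3 minus the mean of the other 5 libraries, for the 8 tested members, the lambda constant gene Iglc2 and the joining chain gene Igj; bars are the SD of the other 5 libraries and the grey band spans the 5th to 95th percentile of all tested genes. Ighg3 (-4.43), Iglc2 (-3.52), Ighg1 (-3.43) and Igkc (-2.10) lie below the band, and Igj (1.30) lies above it. A prior count of 2 was used, and Ighg3 had 0 counts in female replicate 3.

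Levels of different genes were compared per kilobase of the longest annotated transcript. On that scale Ighm had 533 ± 258 CPM per kilobase in females and 635 ± 30.1 in males, and Igkc 157 ± 129 in females and 158.5 ± 20.4 in males (SD, n = 3 each). Ighg2b followed with 31.9 ± 11.0 in females and 38.7 ± 1.44 in males, then Ighd with 18.2 ± 5.54 in females and 29.1 ± 2.56 in males. Ighg2c had 11.4 ± 7.72 in females and 12.4 ± 0.605 in males. This order from Ighm to Ighg2c held within each of the 6 libraries. Below it, Ighg1 (1.31 ± 1.14 in females and 1.5 ± 0.801 in males), Ighg3 (0.454 ± 0.508 in females and 0.583 ± 0.0799 in males) and Igha (0.281 ± 0.218 in females and 0.360 ± 0.130 in males) overlapped between libraries. Ighg1 was above Ighg3 in 5 of 6 libraries and Ighg3 above Igha in 4 of 6, so these neighbours did not differ beyond their spread. Per kilobase of the shortest transcript, Igkc was above Ighg2b in 5 of 6 libraries, female 3 being the exception.

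As a share of the summed heavy constant counts, Ighm dominated. It took 87.5, 88.0 and 83.9% in female replicates 1 to 3, against 86.6, 85.8 and 86.0% in male replicates 1 to 3. Females 1 and 2 were above all males and female 3 below them. The difference, female minus male, was 0.33 percentage points (exact permutation p = 0.9, 2-sided). With 3 mice against 3, this test cannot go below 0.1, so none of the 13 shares, ratios and sums compared in this way could pass 0.05. The sum itself was 1449, 1166 and 499.6 CPM in female replicates 1 to 3, against 1312, 1233 and 1209 CPM in male replicates 1 to 3. The 95% Wilson interval of an Ighm share reached 0.343 to 0.540 percentage points to either side in females, whose SD was 2.25 points, and 0.328 to 0.372 points in males, whose SD was 0.425 points. The interval of an Ighd share reached at most 0.300 points. The intervals cover counting error only.

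Ighd took 2.83, 3.08 and 4.34% of the heavy counts in female replicates 1 to 3, against 3.75, 4.70 and 4.21% in male replicates 1 to 3. Females 1 and 2 were below every male, and female 3 lay among the males. The means were 3.42 ± 0.812% in females and 4.22 ± 0.474% in males (SD, n = 3 each), a difference of -0.80 percentage points (exact permutation p = 0.3, 2-sided). Without female replicate 3 the difference was -1.26 points (p = 0.2, the smallest that 2 against 3 allows in this exact test), and without female replicate 1 it was -0.51 points (exact p = 0.6).

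The 4 gamma genes together took 9.63, 8.76 and 11.7% in female replicates 1 to 3, against 9.55, 9.41 and 9.69% in male replicates 1 to 3. Males held within 0.286 points of each other. The difference was 0.49 percentage points (exact permutation p = 0.8, 2-sided), and -0.35 without female replicate 3. Ighg2b alone took 7.60, 7.01 and 10.8% in female replicates 1 to 3, against 7.87, 8.02 and 7.93% in male replicates 1 to 3. Thus the high gamma share of female 3 was in Ighg2b. Ighg2c took 1.61, 1.18 and 0.911% in female replicates 1 to 3, against 1.19, 1.15 and 1.26% in male replicates 1 to 3.

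**Figure D4:**
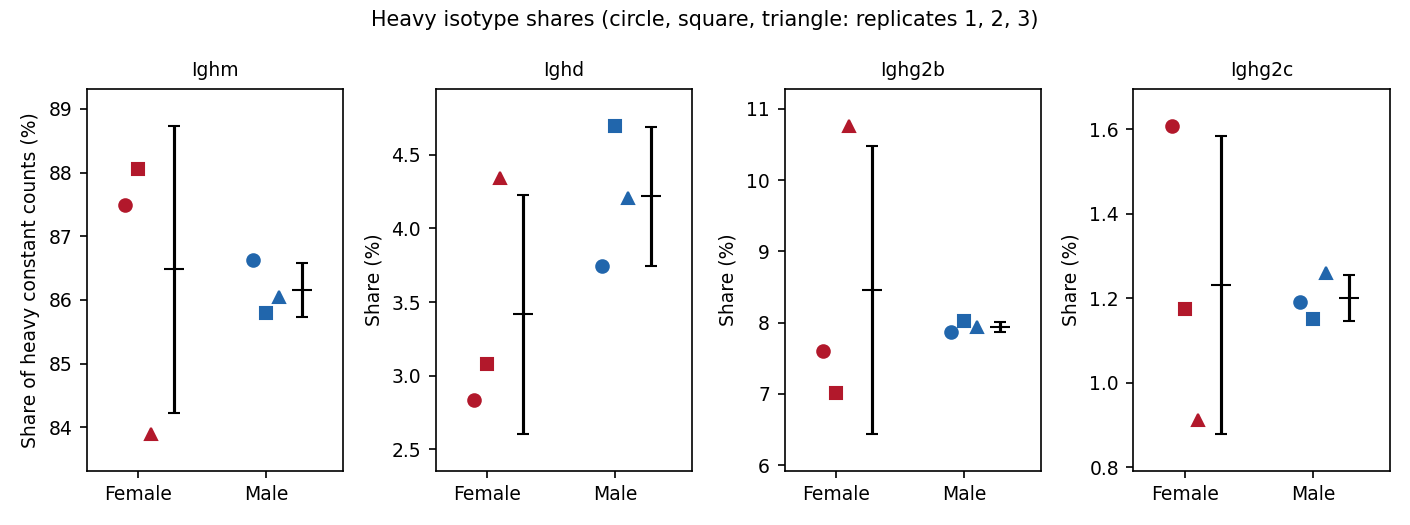
Share of the summed heavy constant counts (%) taken by Ighm, Ighd, Ighg2b and Ighg2c in each library; black bars are the mean ± SD over 3 mice and the vertical axes do not start at 0. Female replicate 3 (red triangle) has the lowest Ighm share (83.9%) and the highest Ighg2b share (10.8%), and females 1 and 2 have the lowest Ighd shares (2.83 and 3.08%).

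The remaining isotypes took under 1% each. The Ighg1 share was 0.0456 to 0.502% in females and 0.119 to 0.396% in males, and that of Ighg3 was 0 to 0.167% in females and 0.0903 to 0.127% in males. Female 3 had 0 Ighg3 counts among 17816 heavy constant counts, which allows a share of up to 0.0168%. The Igha share was 0.0389 to 0.111% in females and 0.0488 to 0.101% in males. Ighe took at most 0.00285% in females and 0.00496 to 0.0145% in males, on the few counts given above. Within the IgG sum alone, Ighg2b made up 79.0, 80.0 and 91.8% in female replicates 1 to 3, against 82.4, 85.2 and 81.8% in male replicates 1 to 3. Ighg2c made up 16.7, 13.4 and 7.78% in female replicates 1 to 3, against 12.5, 12.2 and 12.99% in male replicates 1 to 3. Female 3 therefore differed from the rest in the makeup of its IgG counts as well as in their share.

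Shares of counts lean towards longer transcripts. Divided by the longest transcript of each gene, Ighm took 88.9 ± 1.66% in females and 88.5 ± 0.413% in males, Ighd 3.31 ± 0.813% in females and 4.07 ± 0.459% in males, and the gamma genes 7.77 ± 0.954% in females and 7.41 ± 0.140% in males (SD, n = 3 each). Divided by the shortest, Ighd took 5.97 ± 1.35% in females and 7.34 ± 0.799% in males. The choice of length moved the level of the Ighd share by over 1.5 times but not the side on which females lay.

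The ratio of Ighm to Ighd within a library does not depend on how libraries are scaled. It was 30.9, 28.6 and 19.3 in female replicates 1 to 3, against 23.1, 18.3 and 20.5 in male replicates 1 to 3. Females 1 and 2 were above every male, and female 3 lay among the males. The mean ratio was 26.3 ± 6.14 in females and 20.6 ± 2.42 in males (SD, n = 3 each), with a log2 difference of 0.33 (exact permutation p = 0.3, 2-sided). Without female replicate 3 the log2 difference was 0.54 (exact p = 0.2), and without female replicate 1 it was 0.20 (exact p = 0.6). Zfp318, whose protein is needed in mice for the processing that gives IgD, had 152, 106 and 114 CPM in female replicates 1 to 3, against 146, 178 and 160.5 CPM in male replicates 1 to 3. Its log2 fold change was -0.25 ± 0.17 (unadjusted p = 0.166, adjusted p = 0.999, edgeR), and the groups overlapped at female 1.

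The ratio of Igkc to the heavy sum was 0.106, 0.0678 and 0.0340 in female replicates 1 to 3, against 0.0738, 0.0630 and 0.0649 in male replicates 1 to 3. Again the highest and the lowest value were female, with the males in between and female 2 among them. The log2 difference was -0.10 (exact permutation p = 0.9, 2-sided), and 0.34 without female replicate 3. These are ratios of counts, and Igkc has the shortest transcript of all members, at 532 bases. Per kilobase of the longest transcript, Igkc averaged 157 CPM in females and 158.5 in males, beside 533 and 635 for Ighm. With counts per base of that transcript, the log2 difference in the ratio was -0.098 (exact permutation p = 0.9, 2-sided).

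The lambda constant gene Iglc2 had fewer counts than Igkc in all 6 libraries. It had 44.2, 23.4 and 2.05 CPM in female replicates 1 to 3, against 33.8, 26.2 and 29.8 CPM in male replicates 1 to 3. Iglc1 and Iglc3 had no row under these names, and how reads from them were counted was not tested. The ratio of Igkc to Iglc2, chosen after the values were seen, was 3.49, 3.39 and 8.30 in female replicates 1 to 3, against 2.86, 2.97 and 2.63 in male replicates 1 to 3. Every female was above every male (log2 difference 0.71, exact permutation p = 0.1, the smallest possible), and without female replicate 3 the log2 difference was 0.29. For single genes, CPM levels did not overlap between the sexes, in either direction, in 10.2% of all tested genes. How common such a gap is among ratios of genes was not tested.

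**Figure D5:**
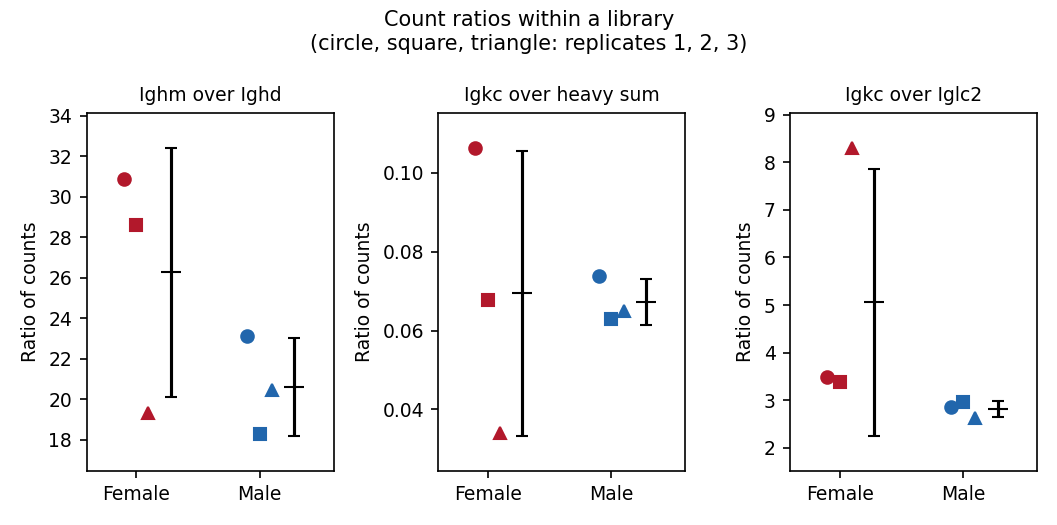
Ratios of estimated counts within each library: Ighm over Ighd, Igkc over the summed heavy constant genes, and Igkc over Iglc2; black bars are the mean ± SD over 3 mice and the vertical axes do not start at 0. Females 1 and 2 have the highest Ighm to Ighd ratios (30.9 and 28.6), and female replicate 3 (red triangle) has the lowest Igkc to heavy ratio (0.0340) and the highest Igkc to Iglc2 ratio (8.30).

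Genes that act with the constant genes were taken as 3 lists, and edgeR called 0 members of each over all genes tested. Of 7 tested partners of the chains, 4 were positive and 3 negative in log2 fold change. Their median was 0.02, beside 0.00095 over all tested genes. Igj, the joining chain gene of secreted IgM and IgA, had 37.7, 48.4 and 48.2 CPM in female replicates 1 to 3, against 17.1, 17.0 and 18.3 CPM in male replicates 1 to 3. Igj was thus above every male in every female, including female 3, in which the constant genes were low. Its log2 fold change was 1.51 ± 0.22 (unadjusted p = 0.000153, adjusted p = 0.169, edgeR), and it passed with DESeq2 (adjusted p = 3.6e-06). Beside it, 2.69% of all tested genes were higher in every female. Hsp90b1, a chaperone gene of the endoplasmic reticulum, averaged 3352 ± 515 CPM in females and 3279 ± 234 CPM in males. Cd79b, a signalling partner of membrane immunoglobulin, averaged 26.4 ± 23.6 CPM in females and 41.0 ± 8.26 CPM in males (SD, n = 3 each). Both overlapped between the sexes, with unadjusted p values of 0.316 and 0.350 (edgeR, all genes).

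Of 20 tested genes of switching and isotype choice, 11 were positive and 9 negative. Their median was 0.02, beside 0.00095 over all tested genes. At an unadjusted p under 0.05 (edgeR) there were 0, beside 2.89% of all tested genes. Xrcc6, which encodes the end-joining protein Ku70, averaged 43.6 ± 6.49 CPM in females and 57.9 ± 3.97 CPM in males (SD, n = 3 each). It was lower in every female (unadjusted p = 0.0996, adjusted p = 0.999, edgeR), as were 7.55% of all tested genes. Rif1, a DNA end-protection gene, averaged 891 ± 113 CPM in females and 803 ± 80.1 CPM in males, and Bcl6, a germinal centre repressor gene, 22.3 ± 4.04 CPM in females and 19.7 ± 3.11 CPM in males. Neither passed an unadjusted p of 0.05.

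Of 10 tested genes of the secreted form and of IgD processing, 6 were positive and 4 negative, beside 49.9% negative over all tested genes. Their median was 0.17, beside 0.00095 over all tested genes, and 0.08 without female replicate 3, beside 0.01. At an unadjusted p under 0.05 (edgeR) there were 3, beside 2.89% of all tested genes. Prdm1, which drives plasma cell differentiation, had 22.1, 61.5 and 22.9 CPM in female replicates 1 to 3, against 11.7, 12.8 and 12.9 CPM in male replicates 1 to 3. Ell2, an elongation factor that favours the secreted heavy chain RNA, had 139, 230 and 222 CPM in female replicates 1 to 3, against 99.7, 122 and 120 CPM in male replicates 1 to 3. Both were above every male in every female, as were 2.69% of all tested genes, while the heavy constant sum was not. Their log2 fold changes were 1.63 ± 0.39 and 0.96 ± 0.27 (adjusted p = 0.999 for both, edgeR), and Prdm1 passed with DESeq2 (adjusted p = 0.0205). Irf4, a factor of plasma cell differentiation and switching, averaged 164 ± 53.9 CPM in females and 119.5 ± 16.8 CPM in males (adjusted p = 0.999, edgeR). Hnrnpll, a splicing factor of plasma cells, averaged 9.87 ± 2.05 CPM in females and 8.26 ± 0.606 CPM in males (SD, n = 3 each). The plasma cell marker list holds Prdm1, Irf4, Igj, Xbp1, Mzb1, Sdc1 and Tnfrsf17. It summed to 279 to 488 CPM in females and 275 to 318 CPM in males, with Tnfrsf17 at 0 throughout. Xbp1 overlapped between the sexes, at 72.9 to 124 CPM in females and 104 to 122 CPM in males. So did Mzb1 (9.89 to 45.7 CPM in females, 25.1 to 37.5 CPM in males) and Sdc1 (1.59 to 3.22 CPM in females, 2.02 to 2.92 CPM in males). The part of this list in the constant gene values was not tested.

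The heavy constant sum varied with a root mean square of 0.379 log2 units about its mean over the 6 libraries. Among 5039 other genes with a mean of at least 20 CPM, those closest to its pattern were 1110008F13Rik, Psmc2 (a proteasome subunit gene), Eif3l (a translation initiation factor gene), Ubap2l and Samm50 (a gene of the mitochondrial sorting machinery). Their centred log2 CPM differed from it by a root mean square of 0.0225 to 0.0559 over the 6 libraries, beside a median of 0.492 over all these genes. The heavy sum was 499.6 CPM in female replicate 3, against 1166 to 1449 CPM in the other libraries. Its pattern, and so the likeness of these genes to it, rests largely on that library. Shared regulation was not tested.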

How the data were processed

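RNA was sequenced from cultured splenic B cells of 3 female and 3 male mice. The table deposited by the authors holds estimated counts per gene symbol, with a column for each mouse. The submitters' processing notes name kallisto, DESeq2 and GRCm38.p6. The versions, annotation and settings behind them were not given in the sources used here. Column totals differ, so no common depth was imposed, and an estimate may carry a length scaling. They were rounded for count tests, while CPM and shares used them as deposited. A floor of 3 counts corresponds to 0.0841 to 0.125 CPM in these libraries.

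The sexes were compared in edgeR 4.0.16 (R 4.3.3) by its quasi-likelihood test (glmQLFit, glmQLFTest), after filterByExpr and TMM scaling, in a design holding sex alone. The 12172 p values were adjusted by Benjamini-Hochberg, with a threshold of 0.05 (FDR). A standard error is the log2 fold change over the square root of F. Adjusted p values come from edgeR where no tool is given. Shares, ratios and sums were compared by exact permutation tests (scipy 1.17.1), unadjusted. Fits were tested on simulated data. Alternatives were DESeq2 1.42.0, limma-voom (limma 3.58.1), RLE factors, library totals only, immunoglobulin rows left out of the scaling, other low-count filters, the replicate block, the length and GC trend removed (natural splines of 4 degrees of freedom, 98.8% of tested genes), other transcript lengths, shares without Ighd and each library left out. Lengths and coordinates are from GENCODE M21, where 40210 of 41669 symbols matched by name or RefSeq synonym.

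Members and lists were chosen with earlier results of these data known. Named were all members; of each companion list the 3 genes with the smallest p, since none was called, and Igj, Zfp318, Ell2 and Hnrnpll by role; and the 5 genes nearest in pattern. The choice of Iglc2, of the ratio that uses it and of the shortest transcripts was made after seeing the data. Some genes of these lists are not reported here. Figures used matplotlib 3.10.9.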

Additional observations from a re-analysis of the deposited data

How the results depend on the processing

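Of the 8 tested members, 0 were called in all 15 alternative fits, and Ighd and Ighg2b kept their direction in each. Igha did not pass the filter of 1 CPM in 3 libraries. Leaving out 1 library at a time gave log2 fold changes of -0.41 to 0.10 for Ighm, -1.58 to 0.21 for Ighg3, -0.97 to 0.39 for Ighg1, -0.56 to 0.30 for Ighg2c, -1.03 to 0.14 for Igha and -0.68 to 0.46 for Igkc. Those of Ighm, Ighg3, Ighg2c and Igha turned positive only without female replicate 3, among these fits. Ighg1 also turned without male replicate 1 or 3, and Igkc turned negative without female replicate 1 and without male replicate 2 or 3. Ighg3 moved to -2.08 with limma-voom and -1.10 with the replicate block, against -0.36 in the edgeR fit. Those fits also gave -0.83 and -0.62 for Ighg1, against -0.15. Igkc was also negative with limma-voom (-0.38), with library totals only (-0.018) and with the replicate block (-0.33), and Ighg2c was 0.067 once the trend in length and GC was taken out. With library totals only, the median of all tested genes was -0.12.

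Of the share differences in percentage points, leaving out 1 library gave -0.46 to 1.62 for Ighm, -0.35 to 1.13 for the gamma genes, -0.63 to 1.24 for Ighg2b, -0.16 to 0.19 for Ighg2c, -0.15 to 0.0811 for Ighg1, -0.0758 to 0.00779 for Ighg3 and -0.0312 to 0.00612 for Igha. Without Ighd in the heavy sum the Ighm difference was -0.41. The heavy sum differed by -0.71 to 0.056 log2 units and the ratio of Igkc to it by -0.48 to 0.34. The Ighd share and the ratio of Ighm to Ighd kept their direction throughout, at -1.26 to -0.51 points and 0.20 to 0.54 log2 units with 1 library left out. The cause of these turns was not tested. Of the companion lists, DESeq2 called 2 genes, the fit without the trend 1, and fits with a library left out 0 to 1, against 0 in the edgeR fit.

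The labels name no pairing of mice of the same number. The deviations of same-numbered mice from their group means correlated at 0.222, 0.0423 and 0.0695 across genes. Those of differently numbered mice correlated at -0.207 to 0.12. Whether same-numbered mice shared a batch was not tested. With the replicate block, 0 members were called, beside 0.0575% of all tested genes. Low counts limit Ighe, Igha, Ighg3 and Ighg1.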

Other observations

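Female replicate 3 was also low in several genes of B cell receptor signalling, and not in other B cell genes. Cd79a and Cd79b, whose proteins signal for membrane immunoglobulin, had 4.61 and 5.20 CPM there, against 12.9 to 29.4 CPM and 22.3 to 51.9 CPM in the other 5 libraries. The inhibitory receptor gene Cd22 had 10.4 CPM, against 20 to 42.3 CPM. In contrast Ms4a1, the CD20 gene, had 1660 CPM in female replicate 3, against 1420 to 1630 CPM, and the B cell factor gene Pax5 had 591 CPM, against 497 to 557 CPM. These genes were picked from the B cell marker list after their values were seen, and no test was made.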
